A study of Homo sapiens with 30 samples.

Results

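The Krüppel-like factors (KLFs) are zinc finger proteins that read GC-rich and CACCC sequences. Of this gene family, 10 members were described here by their gene symbols, KLF2, KLF3, KLF4, KLF6, KLF7, KLF9, KLF10, KLF12, KLF13 and KLF16, out of 21112 genes in the expression tables. RNA was sequenced from 4 cell lines of diffuse large B-cell lymphoma (DLBCL): OCI-Ly10 and TMD8 of the activated B-cell-like (ABC) subtype, and HT and K422 of the germinal center B-cell-like (GCB) subtype. Cells received 0.5 µM AZD8186, an inhibitor of the beta and delta isoforms of phosphatidylinositol 3-kinase (PI3K), or the solvent DMSO, for 6, 12, 18 or 24 h. TMD8 had no 12 h libraries, which left 30 libraries in 15 pairs of AZD8186 and DMSO, 7 from ABC lines and 8 from GCB lines. Each subtype was represented by a pair of lines, and each condition was sequenced once, so time points stood in for replicates, and no source used here states separate cultures. The p-values given here therefore reflect variation among single libraries, part of which may be technical. Controls are DMSO in the sample labels but untreated in the series description. The labels give RPMI medium for all lines, whereas the methods of the study give Iscove's medium for OCI-Ly10 and TMD8; if so, medium and subtype cannot be told apart.

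Library totals ranged from 15820230 to 23579029 expected counts (median 18591638). Of the B-cell markers, CD79A ranged from 560.9 to 1400.0 TPM, a transcript abundance normalized for length and library size, in the ABC lines and from 1158 to 1707 TPM in the GCB lines, and PAX5 was at 17.4 TPM or more in each library. IRF4 was at 78.0 TPM or more in the ABC lines and at 0.04 TPM or less in the GCB lines, where MME, a germinal center marker, was at 22.4 TPM or more. FOXP1, listed as an ABC marker, did not separate the subtypes, with 17.8 to 33.1 TPM in K422 and 15.3 to 20.4 TPM in TMD8. LMO2, listed as a GCB marker, went against its subtype, with 5.16 to 35.4 TPM in TMD8 and at most 0.66 TPM in the GCB lines. K422 carried CD3D (61.6 to 87.3 TPM), CD3G (82.1 to 115.7 TPM) and the stromal gene DCN (98.1 to 187.4 TPM). In contrast, the T-cell gene CD2 and the stromal genes COL1A1, COL1A2 and COL3A1 were at 0 in all libraries of K422. There CD3E was at 0.58 to 1.65 TPM. The part of these genes in the K422 values was not tested. Ribosomal protein genes took 17.5% to 23.2% of counts in DMSO and 21.4% to 25.8% with AZD8186 in the ABC lines, and 11.3% to 17.15% and 13.55% to 18.3% in the GCB lines. A refit left out these genes, ribosomal RNA genes and genes whose names start with MTRNR2L. In it, each tested member kept its call and its direction in the AZD8186 response of both subtypes. In bulk RNA, a change in the number of cells that express a gene and a change in RNA per cell cannot be told apart.

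KLFs are grouped by their cofactors. KLF2, KLF4, KLF6 and KLF7 belong to the group that acts mainly as activators; KLF3 and KLF12 are repressors that recruit the C-terminal binding proteins (CtBP); and KLF9, KLF10, KLF13 and KLF16 bind the corepressor SIN3A. In lymphocytes KLF2 is known as a quiescence and trafficking factor. It is transcribed downstream of FOXO1 and of the MEK5-ERK5-MEF2 pathway. PI3K signaling, through AKT, keeps FOXO proteins out of the nucleus. KLF2 is also recurrently mutated in some B-cell lymphomas.

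Levels in DMSO differed among the cell lines for each of the 9 members that could be tested, as they did for 97.3% of 12596 genes (edgeR quasi-likelihood test, Benjamini-Hochberg adjusted p at most 0.00129 for the members). Between single lines, the share of all genes called was 69.3% for TMD8 against OCI-Ly10, 80.6% for HT against OCI-Ly10, 80.9% for K422 against OCI-Ly10, 76.4% for HT against TMD8, 77.1% for K422 against TMD8 and 68.0% for K422 against HT. The activators KLF2 and KLF6 were highest in OCI-Ly10. KLF2 (chr19:16324817-16327874, plus strand; positions here are GENCODE 29 on GRCh38) reached 13.2 ± 3.57 TPM in OCI-Ly10 (SD, n = 4 time points), 5.80 ± 2.33 TPM in TMD8 (SD, n = 3) and 0.213 ± 0.036 TPM in K422 (SD, n = 4). It had no read in any of the 8 HT libraries, where a count of 0 allows up to 3 counts, or 0.142 to 0.190 CPM (counts scaled by library size) by library, as far as counting error goes. KLF6 (chr10:3775996-3785281, minus strand), an immediate-early factor, fell in the order OCI-Ly10, TMD8, HT and K422, with 9.62 ± 1.27, 8.09 ± 1.62, 6.29 ± 0.68 and 2.53 ± 0.21 TPM. All neighbors in that order differed, but the closest, TMD8 and OCI-Ly10 (log2 difference -0.24, SE 0.094, edgeR adjusted p = 0.0299), did not pass under TPM (limma adjusted p = 0.0950) or without the DMSO library of OCI-Ly10 at 18 or 24 h or of TMD8 at 18 h (edgeR adjusted p from 0.0524 to 0.102). KLF7 (chr2:207074137-207167267, minus strand), related to KLF6, was at 0.44 to 0.65 TPM in K422 against 0.02 TPM or less in the other lines. KLF4 (chr9:107484852-107490482, minus strand), a pluripotency and quiescence factor, had 1 count in each of 2 HT libraries and none in the other 28, and was tested nowhere.

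Of the CtBP-binding repressors, KLF3 was higher in the ABC lines and KLF12 in the GCB lines. KLF3 (chr4:38664196-38701042, plus strand) was at 1.48 ± 0.33 TPM in TMD8 and 0.865 ± 0.34 TPM in OCI-Ly10, but at 0.09 TPM or less in DMSO libraries of HT and K422. The difference of TMD8 from OCI-Ly10 (0.78, SE 0.25, edgeR adjusted p = 0.00894) was lost without the 6 h DMSO library of either line (adjusted p = 0.136 and 0.158) and with DESeq2 (adjusted p = 0.0673). KLF12 (chr13:73686089-73995056, minus strand) was highest in K422 (3.12 ± 0.40 TPM), followed by HT (2.16 ± 0.25), OCI-Ly10 (1.48 ± 0.28) and TMD8 (0.780 ± 0.16), and all neighbors differed. The closest pair, HT against OCI-Ly10 (0.27, edgeR adjusted p = 0.0230), lost its call with DESeq2 (0.21, adjusted p = 0.0920) and without any 1 of 4 DMSO libraries (HT at 12 or 24 h, OCI-Ly10 at 12 or 18 h, adjusted p from 0.0572 to 0.196).

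Among the SIN3A-binding members, KLF13 and KLF16 were the most abundant of the 10. KLF16 (chr19:1852399-1863568, minus strand) was highest in K422 at 48.8 ± 3.73 TPM. HT (33.4 ± 1.81), OCI-Ly10 (29.4 ± 6.84) and TMD8 (24.5 ± 1.55) could not be ordered by the test (edgeR adjusted p from 0.189 to 0.528). The difference of HT from OCI-Ly10 changed sign between CPM (-0.08) and TPM (0.21), and that of HT from TMD8 passed under TPM (0.40, limma adjusted p = 0.0163) and without the 6 h DMSO library of TMD8 (0.28, edgeR adjusted p = 0.0345). Without the 6 h DMSO library of OCI-Ly10, that line was above TMD8 (-0.37, TMD8 minus OCI-Ly10, edgeR adjusted p = 0.00159) and HT (-0.23, HT minus OCI-Ly10, edgeR adjusted p = 0.0158), and without that of TMD8 it was above TMD8 (-0.36, edgeR adjusted p = 0.00874). KLF13 (chr15:31326855-31435665, plus strand), known for its role in lymphocyte chemokine transcription, was at 35.3 ± 11.8 TPM in TMD8, 31.0 ± 4.73 in K422, 27.7 ± 5.40 in OCI-Ly10 and 16.7 ± 1.13 in HT. HT was below each other line on both scales, whereas K422 was below OCI-Ly10 by CPM (-0.24, edgeR adjusted p = 0.0305) and above it by TPM (0.17, limma adjusted p = 0.241), and it lost the first call without any 1 of 4 DMSO libraries (K422 or OCI-Ly10 at 12 or 24 h). TMD8 exceeded OCI-Ly10 by 0.35 on the log2 CPM scale (edgeR adjusted p = 0.00719), a call lost under TPM (limma adjusted p = 0.0656) and without the 18 h DMSO library of OCI-Ly10 or the 24 h DMSO library of TMD8 (adjusted p = 0.0755 and 0.116). KLF10 (chr8:102648779-102655902, minus strand), a TGF-beta early response gene, fell in the order OCI-Ly10, HT, TMD8 and K422 (6.62 ± 1.70, 4.85 ± 0.48, 2.06 ± 0.19 and 1.15 ± 0.25 TPM), with all neighbors different. KLF9 (chr9:70384597-70414624, minus strand), a glucocorticoid-induced factor, was found mainly in OCI-Ly10 (1.35 ± 0.64 TPM), was at 0.123 ± 0.075 TPM in TMD8, and had at most 1 count in any DMSO library of the GCB lines.

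**Figure D1:**
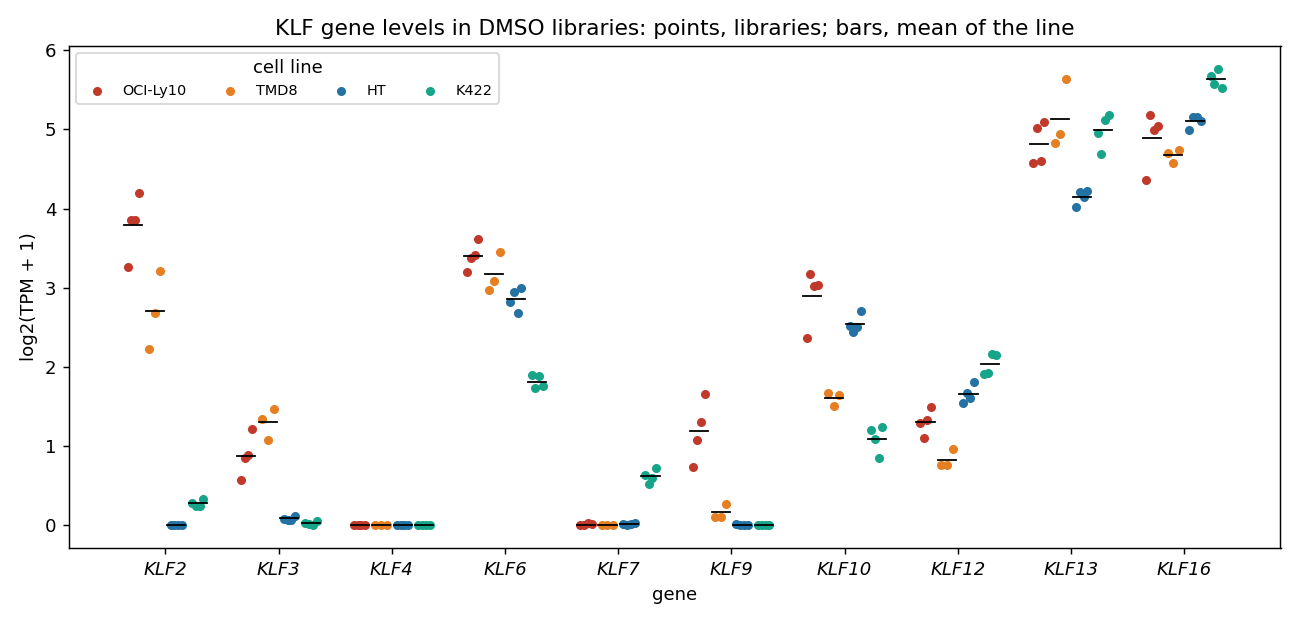
Level of each KLF gene in the DMSO libraries, as log2(TPM + 1), by cell line. Points are libraries (time points) and black bars are means of the line. KLF13 and KLF16 lie highest in every line, KLF2 and KLF3 are near 0 in HT and K422, and KLF4 is at 0 in all lines.

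The stretches before the gene starts of members that changed with AZD8186 were read from RefSeq (GRCh38.p14), to show which factor motifs these promoters hold. A window was listed for 8 of 10 members, and not for KLF3 and KLF10. The sequences run 5' to 3' on the strand of the gene, up to the gene start of RefSeq or of GENCODE 29, whichever comes first. KLF6, KLF13 and KLF16 were called in both subtypes; KLF2 was added after its values were seen, and the listed KLF12 windows lay over 200 bases from the GENCODE start and were left out. Capitals mark matches, on either strand, to the GC box GGGCGG, the KLF box CACCC and the E-box CACGTG.
KLF2 (chr19:16324576-16324816, plus strand): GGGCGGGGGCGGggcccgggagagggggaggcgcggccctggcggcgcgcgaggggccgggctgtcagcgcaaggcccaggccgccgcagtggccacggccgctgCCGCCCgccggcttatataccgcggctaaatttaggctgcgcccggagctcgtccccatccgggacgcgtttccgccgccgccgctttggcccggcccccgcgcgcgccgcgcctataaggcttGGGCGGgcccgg
KLF6 (chr10:3785282-3785459, minus strand): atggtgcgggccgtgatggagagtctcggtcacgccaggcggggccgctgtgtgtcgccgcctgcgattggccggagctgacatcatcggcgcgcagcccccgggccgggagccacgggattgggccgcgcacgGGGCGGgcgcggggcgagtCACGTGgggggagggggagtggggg
KLF13 (chr15:31326585-31326834, plus strand): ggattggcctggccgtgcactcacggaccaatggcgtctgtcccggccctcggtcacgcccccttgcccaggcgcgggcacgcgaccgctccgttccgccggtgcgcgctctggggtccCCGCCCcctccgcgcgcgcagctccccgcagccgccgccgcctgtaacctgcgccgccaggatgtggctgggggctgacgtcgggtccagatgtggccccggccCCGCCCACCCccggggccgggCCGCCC
KLF16 (chr19:1863580-1863829, minus strand): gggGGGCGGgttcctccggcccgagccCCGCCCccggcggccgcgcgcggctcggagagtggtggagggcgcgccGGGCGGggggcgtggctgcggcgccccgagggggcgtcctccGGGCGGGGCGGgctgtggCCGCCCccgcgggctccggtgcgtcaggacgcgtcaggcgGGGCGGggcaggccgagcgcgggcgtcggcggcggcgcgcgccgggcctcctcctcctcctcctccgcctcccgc
In the full windows of 250 bases, the GC box matched 4 times in KLF2, 2 times in KLF6, 3 times in KLF13 and 7 times in KLF16, with some matches overlapping in KLF16. A GC box was found in 42.6% of all 35116 RefSeq windows of that length. KLF13 held 1 KLF box, which overlapped a GC box, against 54.7% of windows with at least 1, and KLF6 held 1 E-box, against 6.34% of windows. The FOXO core GTAAACA, found in 2.98% of windows, had no match in these 4.

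AZD8186 raised KLF2 in both ABC lines and in K422. In OCI-Ly10 the DMSO libraries gave 8.61, 13.44, 13.44 and 17.34 TPM at 6, 12, 18 and 24 h, and the AZD8186 libraries gave 10.21, 16.50, 19.27 and 19.86 TPM. In TMD8, DMSO gave 3.70, 5.40 and 8.30 TPM at 6, 18 and 24 h, and AZD8186 gave 6.75, 9.52 and 12.68 TPM. The AZD8186 library was higher at each time, although the groups overlapped because both rose over the hours. Across the 7 ABC pairs KLF2 was 1.63-fold higher on average (log2 fold change 0.70, SE 0.096, edgeR quasi-likelihood adjusted p = 0.000243), and it rose in 7 of 7 pairs, with log2 ratios from 0.21 to 1.101. By line, the log2 fold change was 0.50 in OCI-Ly10 (SE 0.092) and 0.997 in TMD8 (SE 0.11), and the difference of 0.50 between the lines did not pass the test (95% interval 0.19 to 0.81, edgeR adjusted p = 0.144). In K422 KLF2 was close to the detection limit, with 9, 7, 8 and 9 counts in DMSO and 15, 23, 16 and 15 counts with AZD8186. The groups did not overlap there, and the fitted log2 fold change was 1.16 (SE 0.25, edgeR adjusted p = 0.00179). HT had no KLF2 read with either treatment. In a fit of the DMSO libraries of all 4 lines, KLF2 was also higher at 24 h than at 6 h (log2 difference 0.69, SE 0.14, edgeR adjusted p = 0.0148). In that fit 6.10% of genes changed with time. The rise was seen in OCI-Ly10 and TMD8, since HT had no read and K422 had 9 counts at both 6 and 24 h. KLF2 lost the call without any 1 of 3 DMSO libraries (OCI-Ly10 at 6 h or 24 h, or TMD8 at 24 h, adjusted p from 0.0735 to 0.105).

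**Figure D2:**
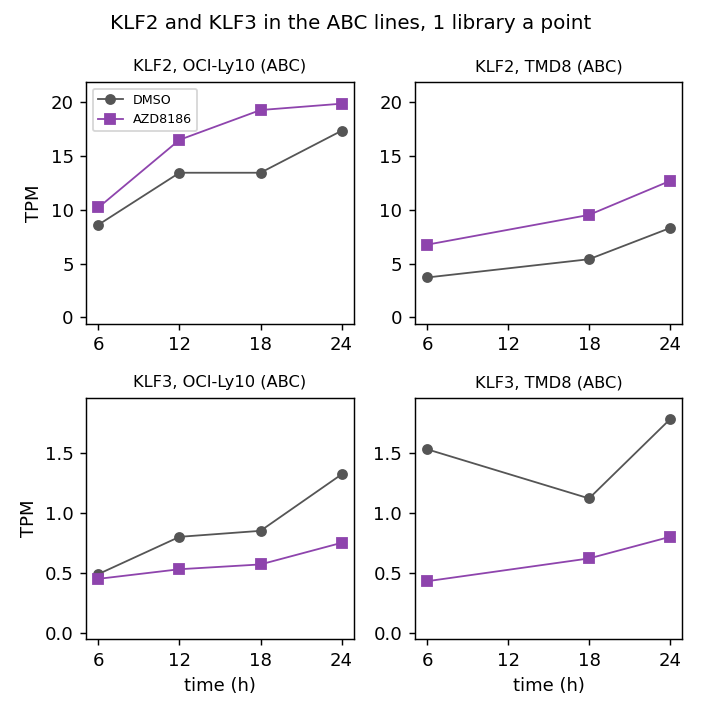
KLF2 (top) and KLF3 (bottom) in TPM against time in hours in OCI-Ly10 and TMD8, with 1 library per point, DMSO in grey circles and AZD8186 in purple squares. KLF2 with AZD8186 lies above DMSO and KLF3 with AZD8186 lies below DMSO at each time.

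KLF6 moved in opposite directions in the subtypes. In OCI-Ly10 it went from 8.17, 9.40, 9.64 and 11.25 TPM in DMSO to 6.36, 6.52, 7.27 and 7.68 TPM with AZD8186 at 6, 12, 18 and 24 h. In TMD8 it went from 6.85, 7.50 and 9.92 TPM to 5.47, 4.54 and 5.82 TPM at 6, 18 and 24 h. In both ABC lines the AZD8186 libraries lay below all DMSO libraries of the line. In HT, DMSO gave 6.07, 6.70, 5.43 and 6.96 TPM and AZD8186 gave 7.42, 8.70, 9.42 and 10.20 TPM. In K422, DMSO gave 2.72, 2.32, 2.69 and 2.38 TPM and AZD8186 gave 3.38, 4.02, 4.20 and 3.53 TPM. In both GCB lines the AZD8186 libraries lay above all DMSO libraries of the line. KLF6 thus fell in 7 of 7 ABC pairs (log2 fold change -0.32, SE 0.066, edgeR adjusted p = 0.00333) and rose in 8 of 8 GCB pairs (0.60, SE 0.076, edgeR adjusted p = 2.14e-05). A two-sided exact permutation of the signs gave p = 0.0156 over the 7 pairs and p = 0.00781 over the 8 pairs, the smallest values these numbers of pairs allow. The permutation treats the pairs as independent, although they are time points of OCI-Ly10 and TMD8, or of HT and K422. Neither its p-values nor that of the subtype difference measure the spread between lines of a subtype. The difference between subtypes, GCB minus ABC, was 0.94 on the log2 scale (95% interval 0.75 to 1.14, edgeR adjusted p = 2.86e-06), in a comparison that called 15.8% of 12910 genes. Within subtypes KLF6 did not pass the test of a difference between lines, with -0.09 for TMD8 minus OCI-Ly10 (95% interval -0.37 to 0.18) and 0.14 for K422 minus HT (-0.13 to 0.41). Both subtype calls and the call of their difference held under each alternative run, TPM and the removal of any 1 pair included. The single ABC lines were less firm, since the call in OCI-Ly10 (-0.28, edgeR adjusted p = 0.0234) was lost without its pair at 6, 12 or 24 h (adjusted p from 0.0747 to 0.0869), and the call in TMD8 (-0.38, edgeR adjusted p = 0.0151) without its pair at 18 or 24 h (adjusted p = 0.103 and 0.0723) and with the line fitted alone (-0.38, adjusted p = 0.106).

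**Figure D3:**
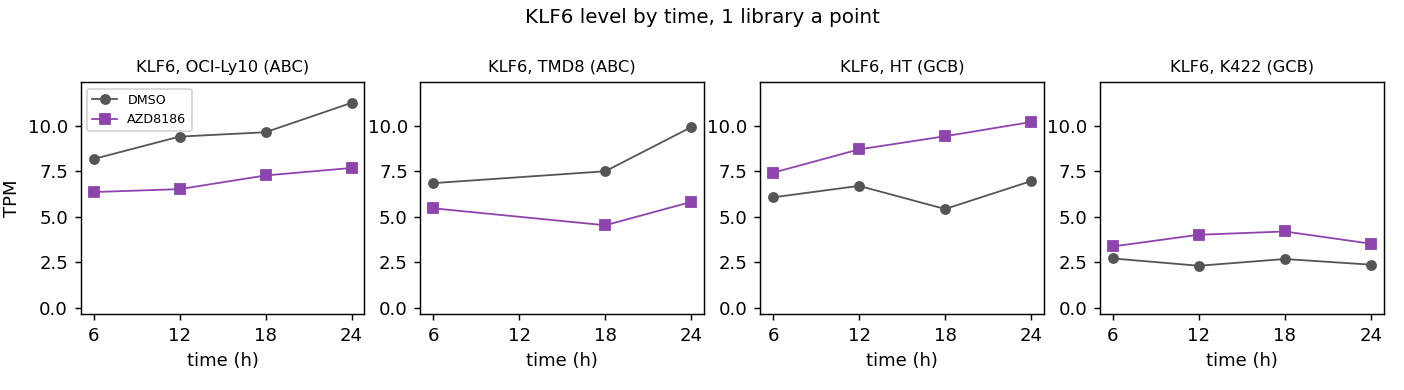
KLF6 in TPM against time in hours in the 4 cell lines, with 1 library per point, DMSO in grey circles and AZD8186 in purple squares. AZD8186 lies below DMSO at all times in OCI-Ly10 and TMD8 and above DMSO at all times in HT and K422.

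Of the 10 members, 8 passed the filter on low counts in the ABC lines and 6 did so in the GCB lines. In the ABC lines 3 rose (KLF2, KLF12, KLF13), 3 fell (KLF3, KLF6, KLF16) and 2 did not pass the test (KLF9, KLF10), where 29.1% of all 11419 genes were called (15.3% higher and 13.8% lower). In the GCB lines 3 rose (KLF6, KLF12, KLF13), 1 fell (KLF16) and 2 did not pass (KLF7, KLF10), where 49.4% of 10965 genes were called (25.9% higher and 23.5% lower). The median log2 fold change of the tested members was -0.01 in the ABC lines and 0.36 in the GCB lines, against 0.01 and 0.02 over all genes. By line, where percentages are shares of 12910 genes called, 6 members were called in OCI-Ly10 (22.8%), 5 in TMD8 (16.9%), 1 in HT (16.6%) and 5 in K422 (43.0%). The scale mattered in the ABC lines, because the median of all genes moved by -0.15 on the log2(TPM + 1) scale. Under TPM, 620 genes were called higher and 4279 lower in the ABC lines, against 1750 higher and 1577 lower by counts, and 2086 higher and 3077 lower in the GCB lines, against 2840 and 2576 by counts.

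KLF16, a repressor that binds GC boxes, was lower with AZD8186 in all 15 pairs, by CPM and by TPM. In K422 it went from 49.96, 46.70, 53.41 and 44.97 TPM in DMSO to 27.95, 23.69, 28.55 and 23.61 TPM with AZD8186 at 6, 12, 18 and 24 h. In OCI-Ly10 it went from 19.53, 35.31, 30.87 and 31.85 TPM to 14.36, 20.37, 18.31 and 18.92 TPM. In TMD8 it went from 25.06, 22.80 and 25.76 TPM to 10.88, 15.47 and 17.80 TPM at 6, 18 and 24 h. The treatments did not overlap in K422 and TMD8, while in OCI-Ly10 the DMSO library at 6 h lay below the AZD8186 library at 12 h. In HT the change was smaller, from 30.89, 34.74, 34.72 and 33.36 TPM to 20.33, 26.19, 31.88 and 29.62 TPM. The log2 fold change was -0.52 in the ABC lines (SE 0.093, edgeR adjusted p = 0.00127) and -0.56 in the GCB lines (SE 0.094, edgeR adjusted p = 0.000215). The log2 fold change in K422, -0.82 (SE 0.10, edgeR adjusted p = 7.68e-06), was lower than in HT (log2 difference -0.53, 95% interval -0.84 to -0.22, edgeR adjusted p = 0.0289, in a comparison that called 10.6% of genes). The call of this difference was lost without the replicate block (adjusted p = 0.0561) and without any 1 of 5 of the 8 GCB pairs (HT at 12, 18 or 24 h, K422 at 12 or 18 h, adjusted p from 0.0573 to 0.0969). In HT itself KLF16 did not pass the test (-0.29, SE 0.10, edgeR adjusted p = 0.0726), but it passed under TPM (-0.32, limma adjusted p = 0.0458) and with HT fitted alone (-0.30, edgeR adjusted p = 0.00221). The TMD8 value of -0.52 rested on the 6 h pair (-1.11), and without that pair it was -0.24 (edgeR adjusted p = 0.09998). With TMD8 fitted alone the value did not pass (-0.53, edgeR adjusted p = 0.140). The AZD8186 library of the 6 h pair had the largest ribosomal RNA share, 4.35% of counts, and a link to the KLF16 value was not tested.

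KLF12 was higher with AZD8186 in all 15 pairs by CPM, most of all in K422. There DMSO gave 2.77, 2.79, 3.47 and 3.46 TPM and AZD8186 gave 4.65, 4.68, 6.22 and 5.45 TPM, without overlap. In HT, DMSO gave 1.92, 2.19, 2.04 and 2.5 TPM and AZD8186 gave 2.26, 2.21, 3.06 and 2.64 TPM, with overlap. The log2 fold change was 0.85 in K422 (SE 0.088, edgeR adjusted p = 8.75e-07) and 0.27 in HT (SE 0.092, edgeR adjusted p = 0.0505), and the difference of 0.58 passed the test (95% interval 0.31 to 0.84, edgeR adjusted p = 0.00815). With HT fitted alone its value passed (0.26, edgeR adjusted p = 0.0219). Over the GCB lines it was 0.56 (SE 0.091, edgeR adjusted p = 0.000151). In the ABC lines levels were lower, 1.14 to 1.82 TPM in DMSO and 1.41 to 2.0 TPM with AZD8186 in OCI-Ly10, and 0.69 to 0.96 TPM and 0.59 to 0.95 TPM in TMD8. The ABC log2 fold change of 0.29 (SE 0.091, edgeR adjusted p = 0.0256) depended on the scale. It was 0.05 under log2(TPM + 1) (limma adjusted p = 0.541), and 4 of 7 ABC pairs were higher by TPM. In TMD8, 2 of 3 pairs were lower by TPM. By single ABC line, KLF12 passed the test in OCI-Ly10 (0.29, SE 0.096, edgeR adjusted p = 0.0352) but not in TMD8 (0.28, SE 0.12, edgeR adjusted p = 0.136). The difference between subtypes, GCB minus ABC, was 0.27 by counts (95% interval 0.06 to 0.49, edgeR adjusted p = 0.0743) and 0.34 under TPM (limma adjusted p = 0.00467). The ABC value also lost the call without any 1 of the OCI-Ly10 pairs at 12, 18 or 24 h (adjusted p from 0.0560 to 0.0940).

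KLF13 was higher with AZD8186 in 7 of 7 ABC pairs and 6 of 8 GCB pairs by CPM, and in 6 of 7 and 5 of 8 by TPM. In TMD8 it went from 27.32, 29.79 and 48.91 TPM to 50.79, 39.87 and 47.89 TPM at 6, 18 and 24 h. By TPM the libraries thus parted at 6 h and met at 24 h, whereas by CPM the 24 h pair was still higher with AZD8186 (log2 ratio 0.29). In OCI-Ly10 it went from 22.84, 31.54, 23.19 and 33.07 TPM to 32.43, 32.86, 27.76 and 35.64 TPM. K422 went from 29.88, 24.82, 33.80 and 35.46 TPM to 39.39, 34.78, 38.02 and 32.46 TPM, and HT from 15.17, 17.54, 16.66 and 17.59 TPM to 13.67, 16.47, 20.03 and 19.86 TPM. The groups overlapped in all 4 lines. The log2 fold change was 0.52 in the ABC lines (SE 0.078, edgeR adjusted p = 0.000404) and 0.21 in the GCB lines (SE 0.069, edgeR adjusted p = 0.0216). By single GCB line, KLF13 passed the test in K422 (0.33, SE 0.093, edgeR adjusted p = 0.00756). It did not pass in HT (0.09, 95% interval -0.11 to 0.29, edgeR adjusted p = 0.563). The K422 call was lost under TPM (0.22, limma adjusted p = 0.175) and without its pair at 12 h (edgeR adjusted p = 0.0607). The GCB value lost its call under log2(TPM + 1) (0.14, limma adjusted p = 0.174) and without any 1 of the HT pairs at 18 and 24 h or the K422 pairs at 12 and 18 h (adjusted p up to 0.0679). The difference of -0.32 between subtypes, GCB minus ABC (95% interval -0.53 to -0.12, edgeR adjusted p = 0.0291), was lost without the replicate block (adjusted p = 0.0649), under TPM (-0.18, limma adjusted p = 0.317) and without any 1 of 7 of the 15 pairs (HT at 6 or 12 h, K422 at 18 or 24 h, OCI-Ly10 at 18 h, TMD8 at 6 or 18 h, adjusted p from 0.0526 to 0.0675).

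**Figure D4:**
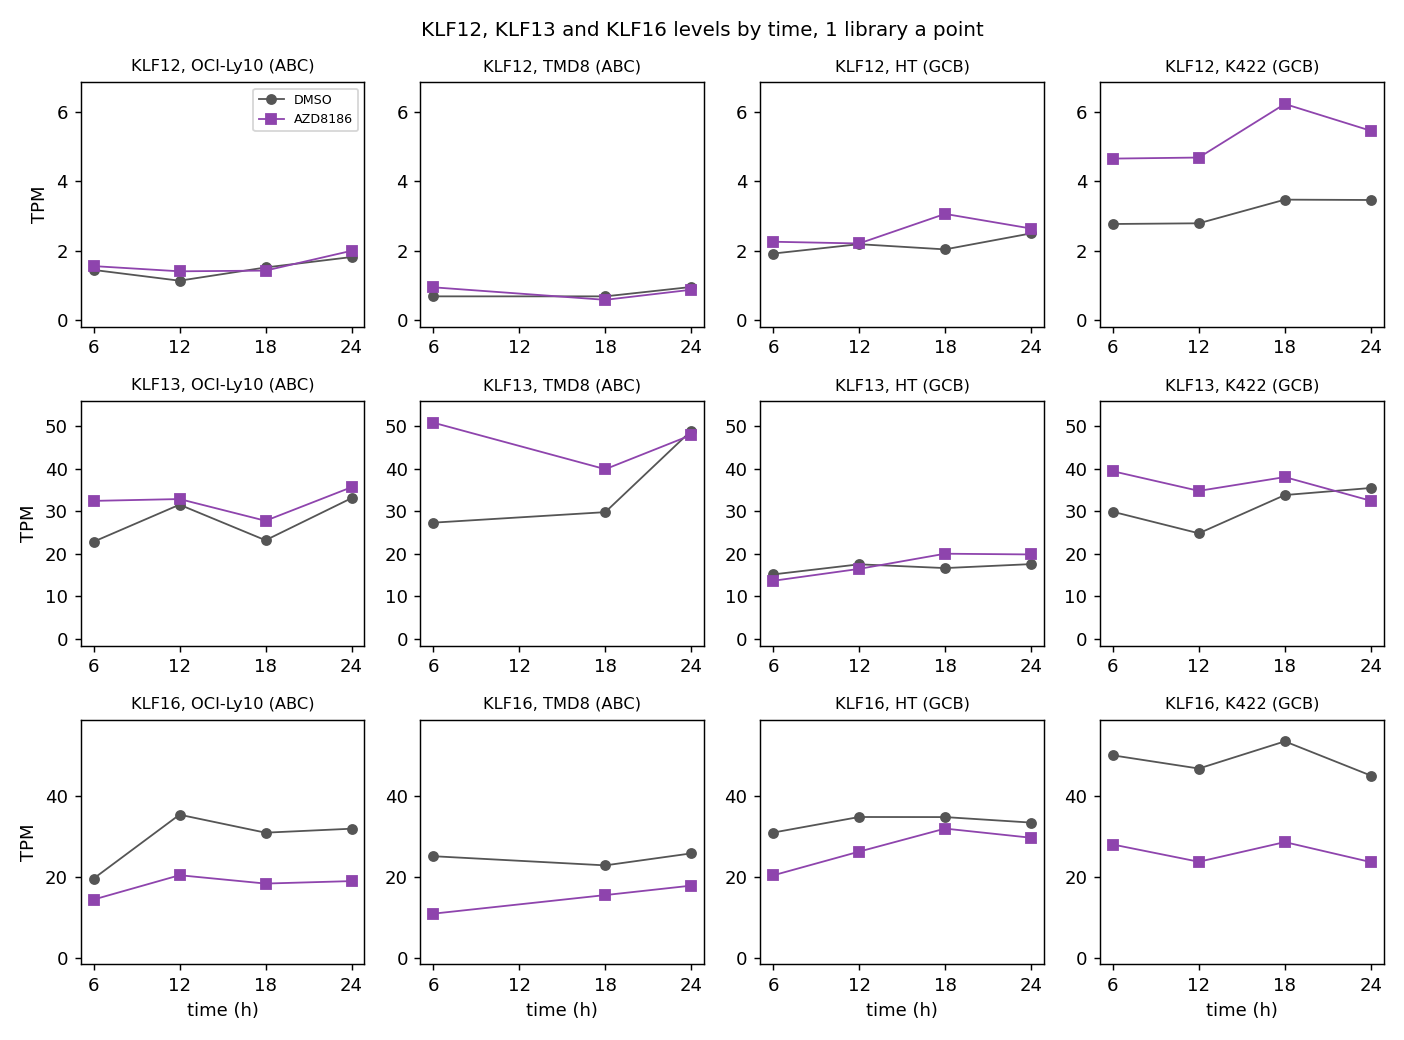
KLF12, KLF13 and KLF16 in TPM against time in hours in the 4 cell lines, with 1 library per point, DMSO in grey circles and AZD8186 in purple squares. KLF16 with AZD8186 lies below DMSO at each time in each line, and the largest gap for KLF12 is in K422.

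KLF3 fell in the ABC lines, where it was expressed. In TMD8 it went from 1.53, 1.12 and 1.78 TPM in DMSO to 0.43, 0.62 and 0.80 TPM with AZD8186 at 6, 18 and 24 h, without overlap. In OCI-Ly10 it went from 0.49, 0.80, 0.85 and 1.32 TPM to 0.45, 0.53, 0.57 and 0.75 TPM at 6, 12, 18 and 24 h, with overlap. The log2 fold change over both lines was -0.69 (SE 0.18, edgeR adjusted p = 0.0117), and the counts behind it were 39 to 166 per library. By line it was -1.02 in TMD8 (SE 0.26, edgeR adjusted p = 0.0137) and -0.36 in OCI-Ly10 (SE 0.24, edgeR adjusted p = 0.311), a difference of -0.66 that did not pass the test (95% interval -1.42 to 0.10, edgeR adjusted p = 0.520). Under TPM both the OCI-Ly10 value (-0.23, limma adjusted p = 0.0109) and the difference (-0.38, limma adjusted p = 0.0382) passed. Without the TMD8 pair at 6 h the TMD8 value was -0.71 (edgeR adjusted p = 0.108), and with TMD8 fitted alone it was -1.03 and did not pass (adjusted p = 0.0736). In HT and K422 KLF3 had 0 to 10 counts per library, did not enter the GCB fit, and did not pass the test in either line (edgeR adjusted p = 0.898 and 0.791).

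KLF10 passed the test in 1 of the 4 lines, OCI-Ly10. It went there from 4.14, 8.0, 7.16 and 7.19 TPM in DMSO to 3.61, 4.61, 4.52 and 4.75 TPM with AZD8186 at 6, 12, 18 and 24 h (log2 fold change -0.39, SE 0.11, edgeR adjusted p = 0.0179), with overlap through the DMSO library at 6 h. The fit without the replicate block lost this call (adjusted p = 0.0866), as did leaving out the pairs at 12, 18 or 24 h (adjusted p from 0.0581 to 0.107). The log2 fold changes elsewhere were 0.14 in TMD8, 0.24 in HT and -0.27 in K422, none past the test, and the difference between TMD8 and OCI-Ly10 did not pass it (0.54, 95% interval 0.15 to 0.92, edgeR adjusted p = 0.216). KLF7, measurable in K422 only, went from 0.56, 0.44, 0.52 and 0.65 TPM to 0.87, 0.50, 0.99 and 0.75 TPM, higher in 4 of 4 pairs (log2 fold change 0.60, SE 0.25, edgeR adjusted p = 0.0684; limma adjusted p = 0.00267 under TPM and edgeR adjusted p = 0.0251 with K422 fitted alone). KLF9 in OCI-Ly10 went from 0.66, 1.11, 1.47 and 2.17 TPM to 1.06, 1.17, 1.15 and 1.35 TPM, higher at 6 and 12 h and lower at 18 and 24 h. The average log2 fold change of KLF9 was 0.08 (95% interval -0.39 to 0.55), and its change between the early and the late hours in the ABC lines did not pass the test by counts (-0.73, SE 0.34, edgeR adjusted p = 0.305) and passed under TPM (-0.34, limma adjusted p = 0.0384).

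By edgeR on counts, no member passed the test of a response that differed between 18 to 24 h and 6 to 12 h, in the ABC lines (0.635% of genes called) or in the GCB lines (0.0852%). By edgeR's unadjusted p, KLF9 and KLF16 were under 0.05 in the ABC lines and KLF6 in the GCB lines. KLF16 in the ABC lines had a log2 difference of 0.38 (95% interval 0.11 to 0.64, edgeR adjusted p = 0.145), and KLF6 in the GCB lines had 0.27 (0.03 to 0.51, edgeR adjusted p = 0.346). The test between the lines TMD8 and OCI-Ly10 also passed for no member (0.899% of genes called), with KLF2 and KLF10 under 0.05 by the unadjusted p. DESeq2 called no member there either, and limma on log2(TPM + 1) called KLF3.

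**Figure D5:**
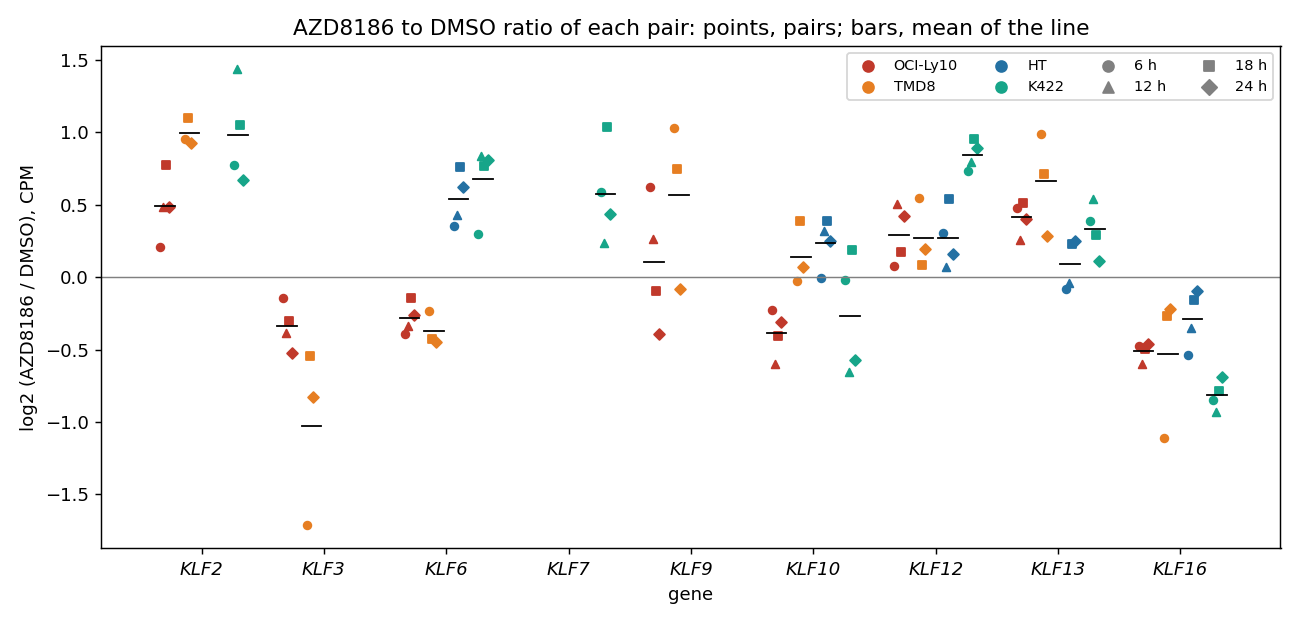
Log2 ratio of AZD8186 to DMSO in CPM for each pair, by gene and cell line, where the mean expected count of the gene in that line was at least 10. Points are pairs, with the marker showing the time, and black bars are means of the line. KLF6 lies below 0 in OCI-Ly10 and TMD8 and above 0 in HT and K422, KLF16 lies below 0 throughout, and the lowest pair of both KLF3 (-1.71) and KLF16 (-1.11) is TMD8 at 6 h.

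Of 10 genes upstream of KLF2 (FOXO1, FOXO3, FOXO4 and members of the MEK5-ERK5-MEF2 pathway), 4 were called higher and 0 lower in the ABC lines, and 8 higher and 0 lower in the GCB lines, with a median log2 fold change of 0.20 and 0.52, against 0.01 and 0.02 over all genes. Of all genes, 15.3% were called higher in the ABC lines and 25.9% in the GCB lines. The ABC calls were MEF2D (0.52), FOXO4 (0.57), MEF2B (0.31) and FOXO1 (0.31, SE 0.11, edgeR adjusted p = 0.0454). The 4 GCB calls with the smallest p were MEF2C (0.66, SE 0.051), FOXO1 (1.27, SE 0.12), FOXO4 (0.95, SE 0.14) and FOXO3 (0.995, SE 0.15). FOXO1 and FOXO3 are forkhead factors that AKT holds inactive, and MEF2C is a B-cell MADS-box factor.

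Of 10 lymphocyte trafficking genes linked to KLF2, 9 were tested in the ABC lines, and 1 rose and 2 fell, where 29.1% of all genes were called. S1PR1, the receptor that lets lymphocytes leave lymphoid tissue, rose (log2 fold change 0.74, SE 0.22, edgeR adjusted p = 0.0198). CD69, which pulls S1PR1 off the cell surface, fell by 1.21 (SE 0.30, edgeR adjusted p = 0.00839), and GPR183, an oxysterol receptor that positions B cells, fell by 0.59 (SE 0.12). The other 6 did not pass the test, and the list's median was -0.16. By single ABC line, 1 of 10 rose and 1 fell in OCI-Ly10 (22.8% of all genes called), and 1 rose and 3 fell in TMD8 (16.9%). CD69 and GPR183 were thus not both called lower in OCI-Ly10. The response difference, TMD8 minus OCI-Ly10, was called lower for 2 of the 10 genes, where 0.899% of all genes were called. In the GCB lines only CXCR5 (0.51, SE 0.20, edgeR adjusted p = 0.0414) and ITGB7 (-0.23, SE 0.063, edgeR adjusted p = 0.00759) passed the filter. Both passed the test, where 49.4% of all genes were called, but DESeq2 did not call CXCR5 (0.27, adjusted p = 0.575). By single GCB line, 2 of 10 rose and 0 fell in HT (16.6% of all genes called), and 1 rose and 0 fell in K422 (43.0%). ITGB7 was thus not called lower in either GCB line.

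Among 9 growth genes linked to KLF factors, a pair of cyclin-dependent kinase inhibitors rose in both subtypes. CDKN1B, encoding p27, rose by 0.30 (SE 0.064) in the ABC lines and by 0.87 (SE 0.076) in the GCB lines, and CDKN2C, encoding p18, rose by 0.42 (SE 0.12) and 0.84 (SE 0.10). CCNE1, encoding cyclin E, fell by 0.37 (SE 0.12) and by 0.41 (SE 0.15). CDKN1C, encoding p57, rose by 2.06 (SE 0.20) and MYC fell by 0.25 (SE 0.038) in the GCB lines. In all, 2 of 7 tested genes rose and 1 fell in the ABC lines, and 3 of 6 rose and 2 fell in the GCB lines, where 29.1% and 49.4% of all genes were called. By single GCB line, 4 of 9 rose and 0 fell in HT, and 2 of 9 rose and 1 fell in K422. There 16.6% and 43.0% of all genes were called. CCNE1 and MYC were thus not called lower in HT, and were not both called lower in K422. CDKN1B, CDKN2C and CDKN1C were not all called higher in K422. By single ABC line, 1 of 9 rose and 1 fell in OCI-Ly10 (22.8% of all genes called), and 2 of 9 rose and 1 fell in TMD8 (16.9%). CDKN1B and CDKN2C were thus not both called higher in OCI-Ly10.

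The genes most like each member called in both subtypes were sought by Pearson correlation of the log2 ratios over the 15 pairs, among the 9567 other genes that averaged 5 CPM or more. The pairs share lines and each ratio uses 1 DMSO library, so the values are given as a description. KLF6 was most like RIPOR2 (r = 0.957), IFI16 (0.956) and RASSF6 (0.946). KLF12 was most like TAX1BP1 (0.919), SGPP1 (0.917) and CYTIP (0.891). KLF13 was most like LOC100129083 (0.908), JMJD1C (0.898) and SERTAD2 (0.871). KLF16 was most like STAT6 (0.944), LTB (0.927) and PDP2 (0.924).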

How the data were processed

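RNA of 30 libraries was sequenced and, per the labels and the methods of the study, isolated with the NucleoSpin RNA Plus kit, aligned with HISAT2 and counted per gene with RSEM on RefSeq transcripts of GRCh38.p12 (tools and build from the submitters' processing notes). The sources used here give no version of either tool and no strandedness. The expected counts deposited by the authors are RSEM's estimates, not normalized, and 23.65% to 29.25% of genes in a library had a value that was not whole. The TPM deposited by the authors are those counts per effective length scaled to the same sum in each library, and served for levels and as an alternative. The FPKM deposited by the authors were not used.

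Expected counts were rounded and tested with edgeR 4.0.16 (quasi-likelihood, TMM, filterByExpr) in R 4.3.3, with Benjamini-Hochberg adjustment over all genes tested and a threshold of 0.05. Subtype responses had line, time and treatment as terms; line responses and differences used all 30 libraries with the pair (line and time) as block. A member's value in a line is given where its mean expected count there was at least 10. Log2 ratios per pair used CPM with a prior count of 2. limma 3.58.1 on log2(TPM + 1) and DESeq2 1.42.0 were alternatives. The fits were also run on simulated counts, drawn independently for each library with the same spread setting for all genes. Such counts carry no dependence between time points of a line, and no result here rests on them. Pairs come from the labels' line and time; 13 of 15 pairs deviated together from their group means with r over 0.1 (range -0.02 to 0.29), so the pairing is one of design and was not shown for each pair.

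All 10 members are named. Of each list, all called genes in a subtype are named where they are 5 or fewer, otherwise the 4 with the smallest p, and the 3 most similar genes are named for members called in both subtypes. The members and lists were chosen with earlier results of these data known. Values of some listed genes are not reported here.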

Additional observations from a re-analysis of the deposited data

Results flagged for a closer look

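Of 73 groups of 4 to 10 samples tested for an outlying sample, 3 had one, and chance alone gives about 1 in 20. The KLF2 level in K422 with AZD8186 at 12 h was 0.57 TPM, where the other 3 times gave 0.39 to 0.42 TPM. The KLF16 log2 ratio of AZD8186 to DMSO in TMD8 at 6 h was -1.11, where the other 6 ABC pairs gave -0.60 to -0.22. The KLF6 log2 ratio in K422 at 6 h was 0.298, where the other 3 times gave 0.765 to 0.836.

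In 4 cases the response differed between lines or subtypes by edgeR's quasi-likelihood test of the difference. Of all 12910 genes, 10.6% were called in K422 minus HT and 15.8% in GCB minus ABC. KLF12 (0.576, adjusted p = 0.00815) and KLF16 (-0.531, adjusted p = 0.0289) differed between K422 and HT, taken as K422 minus HT on the log2 scale. KLF6 (0.943, adjusted p = 2.86e-06) and KLF13 (-0.324, adjusted p = 0.0291) differed between subtypes, taken as GCB minus ABC. The calls of KLF13 and KLF16 did not hold under all alternatives.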

How the results depend on the processing

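In the subtype responses, 85 of 89 refits of called members under other settings and 67 of 74 without 1 pair kept direction and call. With the pair as replicate block no member call changed (KLF13 in GCB 0.20, adjusted p = 0.0267; genes called 5231 in GCB). The single lines and their differences were fitted with that block; without it KLF10 and KLF12 in OCI-Ly10, KLF16 in K422 minus HT (0 members lower, 890 genes called) and KLF13 in GCB minus ABC (0 members lower) lost their calls, and KLF12 in TMD8 minus OCI-Ly10 was 0.0044. Causes were not tested.

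Under log2(TPM + 1) the log2 values turned to -0.025 for KLF9 in ABC, -0.0068 for KLF10 in GCB (-0.069 with a pseudocount of 0.1), -0.070 for KLF9 in OCI-Ly10, -0.065 for KLF10 in TMD8, -0.0062 for KLF6 in K422 minus HT, 0.090 for KLF16 in GCB minus ABC, -0.17 for KLF6 and -0.051 for KLF10 in late minus early ABC, -0.043 for KLF13 in late minus early GCB, 0.21 for KLF16 in HT minus OCI-Ly10 at baseline, 0.17 for KLF13 in K422 minus OCI-Ly10 at baseline, and 0.17 for KLF16 in DMSO 24 h minus 6 h. KLF10 in ABC gained a call (-0.30, limma adjusted p = 0.0392). Under this scale 1 member was higher in OCI-Ly10, 1 lower in HT, 1 lower in TMD8 minus OCI-Ly10, 2 higher and 0 lower in GCB minus ABC, 1 lower in late minus early ABC, and 3 higher in DMSO 24 h minus 6 h. Genes called were 4157 in TMD8, 408 in TMD8 minus OCI-Ly10, 3443 in GCB minus ABC, 1025 and 3 in late minus early ABC and GCB, and 2931 in DMSO 24 h minus 6 h, against 2180, 116, 2042, 82, 11 and 768.

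Without 6 h, KLF9 in ABC was -0.027. Taking 24 h minus 6 h as the period gave 32 genes in ABC and 41 in GCB, with -0.038 for KLF6, -0.00024 for KLF10 and 0.039 for KLF12 in ABC and -0.022 for KLF10 in GCB. Fitted alone, TMD8 had 1 member higher, 0 lower and 403 genes called, losing KLF3, KLF6, KLF13 and KLF16, and HT had 2 higher, 1 lower and 4025 genes against 2145, gaining KLF12 and KLF16. DESeq2 called 235 genes in TMD8 minus OCI-Ly10, and 0 members in DMSO 24 h minus 6 h, where it gave KLF2 no adjusted p.

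Leaving out 1 pair or library, genes called ranged over 2094 to 3836 in ABC, 933 to 1769 in HT, 1171 to 3182 in OCI-Ly10, 964 to 1957 in TMD8, 691 to 1876 in K422 minus HT, 33 to 333 in TMD8 minus OCI-Ly10, 0 to 240 and 0 to 67 in late minus early ABC and GCB, and 52 to 867 in DMSO 24 h minus 6 h. Members lower ranged over 1 to 2 in OCI-Ly10 and TMD8, and 0 to 1 in K422 minus HT and GCB minus ABC; members higher over 1 to 2 in GCB minus ABC and 0 to 1 in DMSO 24 h minus 6 h. Uncalled values that changed sign ranged over -0.013 to 0.12 (KLF10, GCB), -0.084 to 0.26 (KLF9, OCI-Ly10), -0.15 to 0.067 (KLF12) and -0.17 to 0.27 (KLF16) in TMD8 minus OCI-Ly10, -0.17 to 0.033 (KLF16, GCB minus ABC), -0.29 to 0.025 (KLF12), -0.26 to 0.091 (KLF13), -0.15 to 0.53 (KLF3) and -0.046 to 0.16 (KLF6) in late minus early ABC, -0.053 to 0.10 (KLF13, late minus early GCB), and -0.18 to 0.21 (KLF10), -0.20 to 0.053 (KLF16) and -0.058 to 0.98 (KLF3) in DMSO 24 h minus 6 h. KLF4 had too few counts for any test, and KLF2, KLF3, KLF7 and KLF9 averaged under 10 counts in some lines, where their fitted values are mostly not given.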

Other observations

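Among the 16 KLF and SP genes outside the 10 members, 9 passed the filter in the ABC lines, where 1 rose and 2 fell and 29.1% of all genes were called. KLF8, a CtBP-binding repressor like KLF3 and KLF12, rose (log2 fold change 0.72, SE 0.18, edgeR adjusted p = 0.00971), while KLF5 (-1.49, SE 0.28, edgeR adjusted p = 0.00168), an activator of epithelial growth genes, and SP6 (-0.36, SE 0.12, edgeR adjusted p = 0.0293) fell. DESeq2 did not call SP6 (-0.37, adjusted p = 0.0573). Mean KLF8 went from 0.28 TPM in DMSO to 0.56 TPM with AZD8186 in OCI-Ly10, but from 0.83 to 0.85 TPM in TMD8. SP6 had 20 counts over the DMSO libraries of TMD8 and 12 over those with AZD8186. By line, 1 of 9 rose and 1 fell in OCI-Ly10 (22.8% of all genes called), and 0 rose and 1 fell in TMD8 (16.9%). KLF8 was thus not called higher in TMD8. In the GCB lines 5 passed the filter, of which SP2, a ubiquitous GC-box factor, rose (0.32, SE 0.047, edgeR adjusted p = 6.67e-05) and none fell. There 49.4% of all genes were called. KLF11, the close relative of KLF10, was at 2.97 ± 0.899 TPM in OCI-Ly10 and 1.02 ± 0.124 TPM in TMD8 in DMSO, and listed at 0 in all DMSO libraries of HT and K422.

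Of the KLF cofactors, 8 were tested in the ABC lines and 0 were called by edgeR or by DESeq2, where edgeR called 29.1% of all genes. By edgeR's unadjusted p, 3 (CTBP1, HDAC2 and CREBBP) were under 0.05. In the GCB lines the acetyltransferase genes CREBBP (0.50, SE 0.095) and EP300 (0.26, SE 0.068) and the corepressor gene CTBP1 (0.11, SE 0.046) rose, and the deacetylase genes HDAC1 (-0.20, SE 0.055) and HDAC2 (-0.31, SE 0.051) fell, out of 9 tested, where 49.4% of all genes were called. Of 5 ubiquitin ligases that target KLF proteins, WWP1 fell in both subtypes (-0.28, SE 0.077 in ABC and -0.25, SE 0.056 in GCB). It was the only 1 of the 5 called in the ABC lines, where 29.1% of all genes were called. In the fit by line, 0 of the 5 were called in OCI-Ly10 (22.8% of all genes called). In the GCB lines SMURF1 (0.23, SE 0.053) and SIAH1 (0.42, SE 0.11) rose and STUB1 (-0.14, SE 0.042) fell. With WWP1, 2 of 5 rose and 2 fell there, where 49.4% of all genes were called.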
